A study of Mus musculus with 66 samples.

Results

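Gene expression was compared between mouse gastrocnemius, a calf muscle, taken 12 h after cardiotoxin injection and the same muscle left untreated. Cardiotoxin, a peptide of cobra venom, lyses muscle fibres and spares many of the satellite cells that later rebuild them. The comparison was defined by the array labels, as 12 h against control within each of 2 versions of an Affymetrix murine oligonucleotide array, and it used 8 of the 66 arrays of a time course of muscle regeneration. The later version (Av2 by its label) and the earlier version (A) held 2 arrays per group each. The 12 h muscles on A were labelled as having received 100 ul of 10 uM cardiotoxin. The 12 h arrays on Av2 carried the time in the title and no further detail. The controls were labelled as untreated gastrocnemius of 8-week-old mice, and they received no vehicle injection that the labels mention, so the toxin, the needle and the injected volume cannot be told apart. The labels give no genotype, sex or time of day, and no age for the injected mice.

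The same sample codes stood on both versions (1LL and 2LL at 12 h, called replicates 1 and 2 here, and 1RL and 2LL among controls, called control replicates 1 and 2). A result found on both versions is therefore a repeated measurement of the same samples and not a second set of mice. Separate animals are not stated for the 2 samples of a group, and p-values measure only the spread between these arrays. Intensities are deposited processed values on a linear scale, with a floor of 64.7 on Av2 and of 646.8 on A. Values below the floor were set to it and entered the fit at that level.

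In the hours after a muscle is injured, resident cells and damaged fibres release signals that switch on immediate early transcription factors and then cytokines and chemokines. These call neutrophils and later monocytes out of the blood, which clear debris before satellite cells divide. Satellite cells leave their resting state with a rise of the myogenic factor Myod1, and cell division follows later than the time sampled here. In whole muscle, a lower level of a transcript in every fibre and a smaller share of fibre RNA in the sample give the same reading and cannot be told apart.

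At 12 h the muscles held far more transcripts of immediate early factors, of cytokines and chemokines and of neutrophils and monocytes than untreated muscle, on both array versions and in both replicates. Of 11997 probe sets tested on Av2, 1259 were higher at 12 h (10.5%) and 1483 were lower (12.4%) at an adjusted p under 0.05 by limma. Of 4742 tested on A, 429 were higher (9.05%) and 550 were lower (11.6%). Called in the same direction on both versions were 355 higher probe sets (7.49% of the 4742 tested on both) and 352 lower ones (7.42%). Those 355 made up 82.8% of the higher calls on A and 41.5% of the 856 higher calls on Av2 among shared probe sets. For the 352 lower ones the shares were 64.0% of the calls on A and 35.2% of 999 on Av2.

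The rises were larger than the falls. The median log2 change of the higher calls was 1.80 on Av2 and 1.65 on A, and that of the lower calls was −1.07 and −0.93. Over all probe sets tested the median change was 0.00 on Av2 and −0.01 on A. At least a 2-fold change on Av2 was reached by 295 of the 355 and by 198 of the 352. In all 355 rises and in 346 of the 352 falls, both 12 h arrays lay outside the range of both control arrays on both versions. Over all probe sets tested on both, these calls included, 14.6% lay outside it upwards and 23.6% downwards. The calls were made from these same arrays, so the separation follows largely from the selection and is a description only. Only 3 probe sets, of Zbtb37, Gpn2 and Kif22, were called higher on Av2 and lower on A.

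**Figure D1:**
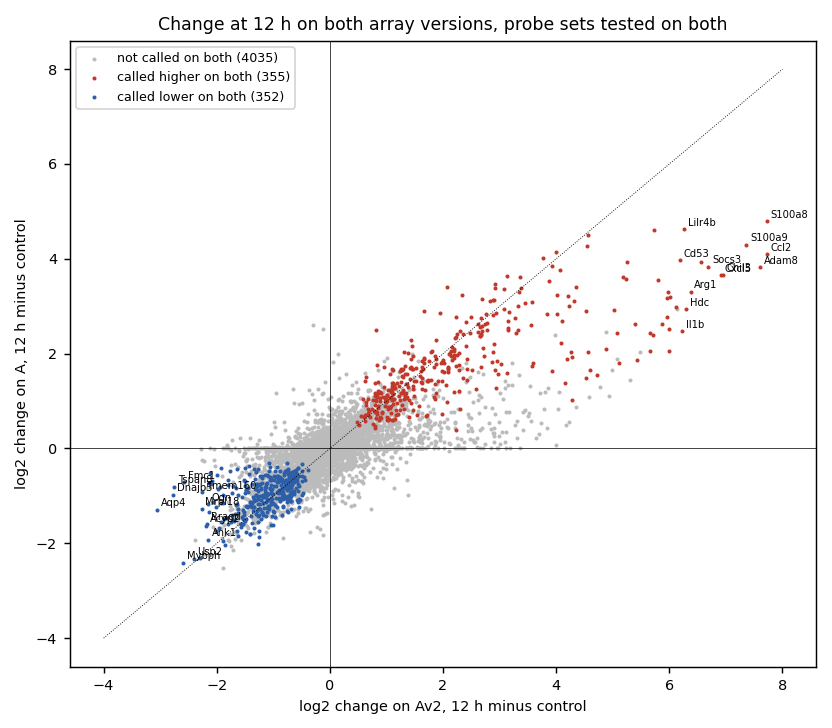
Log2 change at 12 h against control for each probe set tested on both array versions, on Av2 (horizontal axis) and on A (vertical axis). Red points are the 355 probe sets called higher on both versions, blue points the 352 called lower on both, and grey points the remaining 4035; changes on A are compressed for genes whose control arrays lie at the floor of that version.

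The 12 h replicates did not move equally far. Replicate 2 lay further from the controls than replicate 1 on both versions in 272 of the 355 rises and in 268 of the 352 falls. Taken alone, replicate 1 was at least 2-fold above the control mean on both versions for 201 of the rises and at least 2-fold below it for 27 of the falls, whereas replicate 2 was so for 282 and 165. A difference of more than 1 log2 unit between the replicates was found for 22.7% of probe sets on Av2 at 12 h, against 9.37% between the controls, and for 18.0% on A, against 1.08%. With replicate 2 left out, 230 probe sets were called higher and 94 lower on both versions, of which 221 and 83 were among the 355 and 352. Without control replicate 1 the counts were 208 and 152, and without control replicate 2 they were 189 and 103. A fit without replicate 2 leaves 1 array at 12 h and assumes that it varies like the arrays of other groups. On Av2, calls over all probe sets also became fewer in that fit, in both directions. Losses within a gene list are to be read beside this general loss. All calls rest on a spread estimated over all arrays of a version, and with the 12 h and control arrays alone limma called 0 probe sets on Av2 (1783 at an unadjusted p under 0.05) and 32 on A (863).

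Marker sums of B cells and of lymph node stroma were above both controls in replicate 2 and not in replicate 1 on Av2. The summed intensity of 10 B-cell markers on Av2 was 4867 in replicate 1 and 20839 in replicate 2 at 12 h, against 6252 and 5446 in the controls. On A, over 9 markers, it was 4245 and 17176 at 12 h, against 6876 and 5824. All 10 lay above the floor in replicate 2 on Av2, 9 in replicate 1 and 8 in each control. Cd79a, a subunit of the B-cell receptor, read 362 and 3359 at 12 h, against 406 and 154 in controls, with an Av2 call lost without replicate 2 or control replicate 2. Glycam1, made by high endothelial venules of lymph nodes, read 36.5 and 1253 at 12 h, against 139 and 30.1. The part of these cells in the other differences between the replicates was not tested.

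Other marker sums differed less between replicates. Muscle fibre markers summed to 128864 and 126066 on Av2 at 12 h, against 138150 and 182106 in controls, so the tissue was muscle by its defining transcripts in all 4 arrays. On A this sum was 61985 in replicate 1 and 132002 in replicate 2 at 12 h, against 110588 and 118575. The replicates that were alike in this sum on Av2 were thus not alike on A. Slow fibre markers were lower in replicate 2 on both versions. They summed to 42584 and 26853 on Av2 at 12 h, against 49236 and 62708 in controls. On A they summed to 36750 and 23104, against 43996 and 57401. T-cell markers summed to 812 and 1548 at 12 h, against 507 and 610, skin markers to 210.2 and 211.9, against 229 and 310, and endothelial markers to 2714 and 2916, against 3062 and 2610. The manufacturer's b-actin 3′ to 5′ ratio on Av2 was 0.587 and 0.0475 at 12 h, against 0.725 and 1.06 in controls, while on A it was 0.928 and 0.875, against 1.14 and 1.20. The low ratio of replicate 2 on Av2 was thus not seen for the same sample code on A. On Av2 the 1 d arrays had b-actin ratios of 0.0695 and 0.0782 and the 2 d arrays 0.0562 and 0.0333. The Gapdh 3′ to 5′ ratio on Av2 ran the other way, at 0.642 and 0.797 at 12 h, against 0.451 and 0.373 in controls.

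The largest rise was that of a chemokine. Ccl2, the chemokine that draws monocytes through the receptor Ccr2, read 12919 and 14478 on Av2 at 12 h, whereas both controls were below the floor, at 54.7 and 18.8. This was a rise of at least 211-fold, with a log2 change of 7.72 ± 0.33 (SE, adjusted p = 7.15e-17 by limma). On A, Ccl2 read 8468 and 14441 at 12 h, against 88.0 and 130.6 below that version's floor, at least 17.1-fold (adjusted p = 9.92e-05 by limma). The 12 h arrays did not overlap the controls on either version.

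S100a8 and S100a9 form calprotectin, an abundant protein pair of neutrophils. S100a8 read 15362 and 26267 at 12 h on Av2, against 80.3 and 113 in controls, with a log2 change of 7.72 ± 0.81 (SE, adjusted p = 1.47e-08 by limma). S100a9 read 8619 and 13167, against 24.2 and 40.7 below the floor, at least 165-fold. Adam8, a membrane protease of leukocytes, read 8425 and 18869, against 34.6 and 36.8 below the floor, at least 195-fold. In these genes the replicates at 12 h differed by a few fold at most, far less than either differed from the controls.

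The other 8 of the 12 largest rises were of leukocyte, cytokine and enzyme genes. Chil3, a lectin of myeloid cells, read 6643 and 13801 at 12 h, against 32.1 and 92.5, and Cxcl5, a chemokine for neutrophils, read 5233 and 18518, against 14.2 and 104. Hdc, which makes histamine, read 3340 and 7699, against 37.5 and 45.7 below the floor. Il1b, an early inflammatory cytokine, read 2645 and 8882, against 44.0 and 44.3, at least 74.9-fold. Lilr4b, a leukocyte receptor, read 8779 and 14705, against 188 and 117, and Cd53, a tetraspanin of leukocytes, read 6874 and 17903, against 149 and 155.

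Socs3 and Arg1 complete that group. Socs3, which is induced by STAT3 and restrains signalling through gp130, read 7476 and 10561 at 12 h, against 36.1 and 114 in controls, and another and brighter probe set of it changed by 3.64 on the log2 scale instead of 6.69. Arg1, the arginase of myeloid cells, read 1857 in replicate 1 and 15546 in replicate 2, against 13.8 and 11.05 below the floor, at least 83.1-fold. Its replicates were the furthest apart of the 12, although both lay far above the controls. Without replicate 2, all 12 remained called on Av2 and 10 on A, where Hdc and Il1b were lost. Without control replicate 1 or without control replicate 2, all 12 remained called on Av2 and 9 on A, where Hdc, Il1b and Arg1 were lost.

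**Figure D2:**
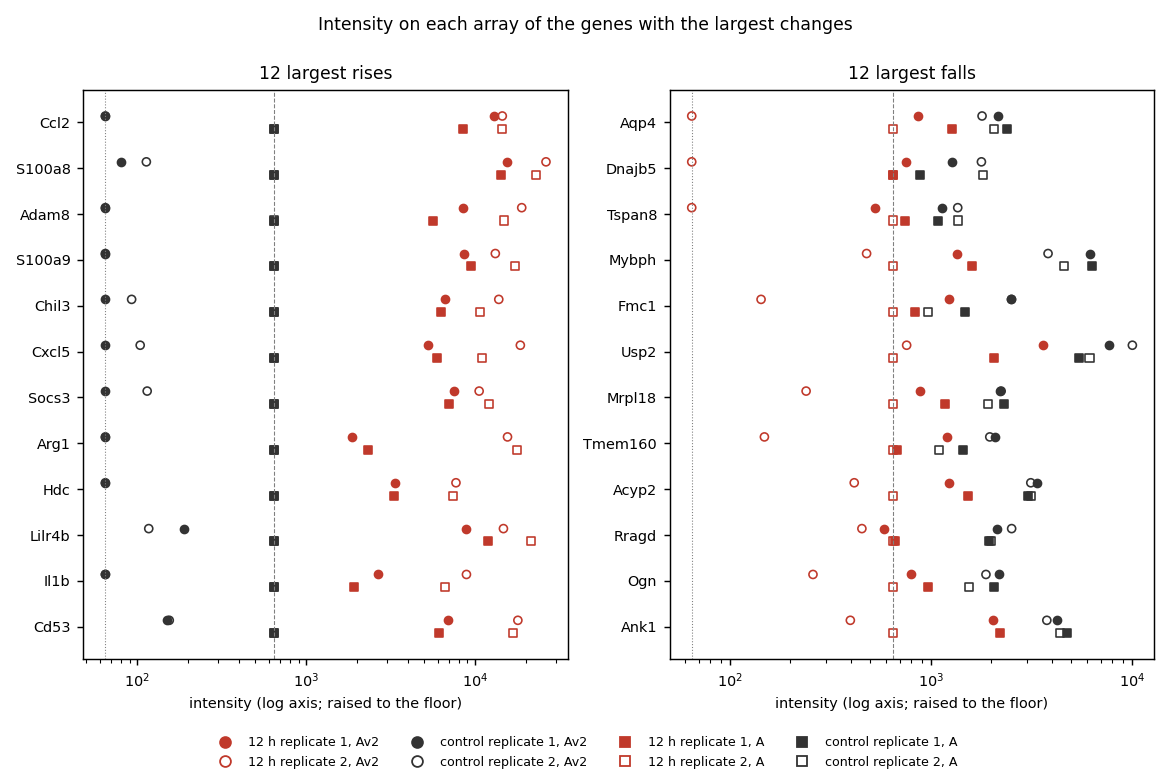
Intensity (horizontal log axis) of the 12 largest rises and the 12 largest falls on each 12 h (red) and control (dark) array. Circles are arrays of Av2 and squares arrays of A, filled for replicate 1 and open for replicate 2, with values raised to the floor of each version. The 12 h arrays of every rise read higher than both controls of their version, and in the falls replicate 2 reads lower than replicate 1 on Av2.

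Immediate early genes, which are switched on without new protein synthesis, were higher in both replicates to a similar extent. Of 28 tested on Av2, 21 rose and none fell, with a median log2 change of 2.29, and 18 were called without replicate 2. On both versions 14 rose. The mean log2 distance from the controls over the list was 1.94 in replicate 1 and 2.20 in replicate 2 on Av2. Atf3, a stress-induced partner of AP-1 factors, read 6853 and 5254 at 12 h, against 323 and 427 in controls, with a log2 change of 4.02 ± 0.36 (SE, adjusted p = 6.40e-10 by limma).

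Egr1, a zinc finger factor induced by growth factor signals, read 11998 and 7775 at 12 h, against 1013 and 358. A dimmer probe set of Egr1 changed by 0.17 on the log2 scale on Av2 and was not called. Fosl1, an AP-1 subunit, read 1448 and 2127, against 68.6 and 42.6. Junb, its partner, read 5235 and 4032, against 497 and 426, and a dimmer probe set gave a log2 change of 5.98 instead of 3.32. In Atf3, Egr1 and Junb replicate 1 was the higher of the replicates on Av2. All 4 kept their calls on both versions without replicate 2.

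Fos itself, listed on Av2 alone, read 4765 and 5534 at 12 h, against 570 and 501, a log2 change of 3.26 ± 0.54 (SE, adjusted p = 3.18e-05 by limma), while a dimmer probe set of Fos changed by 0.63. Jun, the most common AP-1 partner of Fos, read 1018 and 997 at 12 h, against 910 and 636, and was not called (adjusted p = 0.252 by limma). Myc, which drives cell growth, read 652 and 748 at 12 h, against 88.4 and 99.1, and rose on Av2, with an adjusted p of 0.0639 on A by limma.

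Cytokines and chemokines rose together, more so in replicate 2. Of 29 tested on Av2, 19 rose and none fell, with a median log2 change of 1.84 on Av2 and 2.20 on A. Without replicate 2, 18 were called. On both versions 13 rose. The mean distance from the controls was 2.31 log2 units in replicate 1 and 3.18 in replicate 2.

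Il6, a cytokine that acts on muscle and liver through gp130, was an exception in its replicates. It read 2545 and 1868 on Av2 at 12 h, against 43.9 and 18.1 below the floor in controls, at least 33.7-fold, with a log2 change of 5.08 ± 0.23 (SE, adjusted p = 1.49e-16 by limma). On A it read 4062 and 3041 at 12 h, with both controls below the floor of 646.8. Replicate 1 was the higher on both versions, and neither overlapped the controls. Cxcl2, a neutrophil chemokine, read 3490 and 7016 at 12 h on Av2, against 34.7 and 97.9, and lost its call on A without replicate 2 or without either control.

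Receptors and adaptors of interleukin 1 and of the gp130 family moved in both directions. Over all probe sets tested on Av2, 10.5% were called higher and 12.4% lower. Of 19 tested on Av2, 10 rose and 2 fell, with a median log2 change of 0.96, and without replicate 2 the counts were 9 and 2. Il4ra, the receptor chain for interleukins 4 and 13, read 3491 and 7584 at 12 h, against 76.1 and 71.4. Il1r2, a decoy receptor of neutrophils, read 6295 and 8316, against 130.4 and 286. Myd88, the adaptor below interleukin 1 and Toll-like receptors, read 793 and 2193, against 65.5 and 70.6. Osmr, the receptor chain for oncostatin M, read 1514 and 2294, against 346 and 245. In each of these the 12 h arrays lay above both controls on both versions, and the call of Myd88 on A was lost without replicate 2 or without either control.

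Neutrophil genes had the highest median on Av2 of the 35 lists, and some granule genes were not called. Of 25 tested on Av2, 16 rose and none fell, with a median log2 change of 3.19, and 14 were called without replicate 2. On both versions 11 rose. Mmp8, the neutrophil collagenase, read 3277 and 5215 at 12 h, against 47.9 and 52.7 below the floor, at least 63.9-fold, with a call on A that was lost without replicate 2 or without either control. Ngp, a granule protein, read 4226 and 5181, against 83.6 and 35.4. The granule genes Elane, Mpo, Prtn3, Ltf and Camp were not called on Av2, with log2 changes of 0.43 for Elane, 0.78 for Mpo, 1.01 for Prtn3, 0.58 for Ltf and 0.74 for Camp. Neutrophil marker sums were 38149 and 63238 at 12 h, against 3036 and 2578 in controls.

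Of 35 genes of monocytes and macrophages tested on Av2, 31 rose and none fell, with a median log2 change of 3.08, and 26 were called without replicate 2. On both versions 21 rose. Ccr2, the receptor for Ccl2, and the interferon-inducible Slfn4 were among them. Slfn4 read 3598 and 15582 at 12 h on Av2, against 256 and 152. Adgre1 and Csf1r, both markers of mature macrophages, were not called, with log2 changes of 0.10 for Adgre1 and 0.35 for Csf1r on Av2. The list was further from the controls in replicate 2, at 3.76 log2 units on average, than in replicate 1, at 2.45.

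Most calls among B-cell and class II genes were lost without replicate 2. Of 23 genes of B and plasma cells tested on Av2, 9 rose, none was called on both versions, and the median log2 change was 0.99. Without replicate 2, 2 were called, and without replicate 1, 17. Without control replicate 1 or 2 the counts were 4 and 3. The mean distance from the controls was 0.04 log2 units in replicate 1 and 2.17 in replicate 2. Of 16 genes of class II antigen presentation, 7 rose on Av2, 1 of them on both versions. Their median log2 change was 1.22. Without replicate 2 the list had 2 higher and 1 lower, without replicate 1 it had 13 higher, and without control replicate 2 it had 3. Cd74, the class II invariant chain, read 4797 and 23919 at 12 h, against 5187 and 2834, so replicate 1 lay within the control range, and its Av2 call was lost without replicate 2 or control replicate 2.

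Ctss, a lysosomal protease of antigen-presenting cells, was the class II list member called on both versions. It read 5285 and 9815 at 12 h, against 1415 and 963, a log2 change of 2.62 ± 0.25 (SE, adjusted p = 2.17e-09 by limma). Of 24 T and natural killer cell genes, Il7r alone rose on Av2, and 7 were called without replicate 1. Of the 4 tested on A, Satb1 and Thy1 were lower there, by log2 changes of −0.65 and −0.78, and not called on Av2. The lymph node list of 7 genes had 1 called, Cxcl13, which read 63.7 and 2261 at 12 h, against 15.8 and 70.7. Its log2 change of 2.50 on Av2 became −0.06 without replicate 2, and its call was also lost without control replicate 1. None of 7 red cell genes was called.

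**Figure D3:**
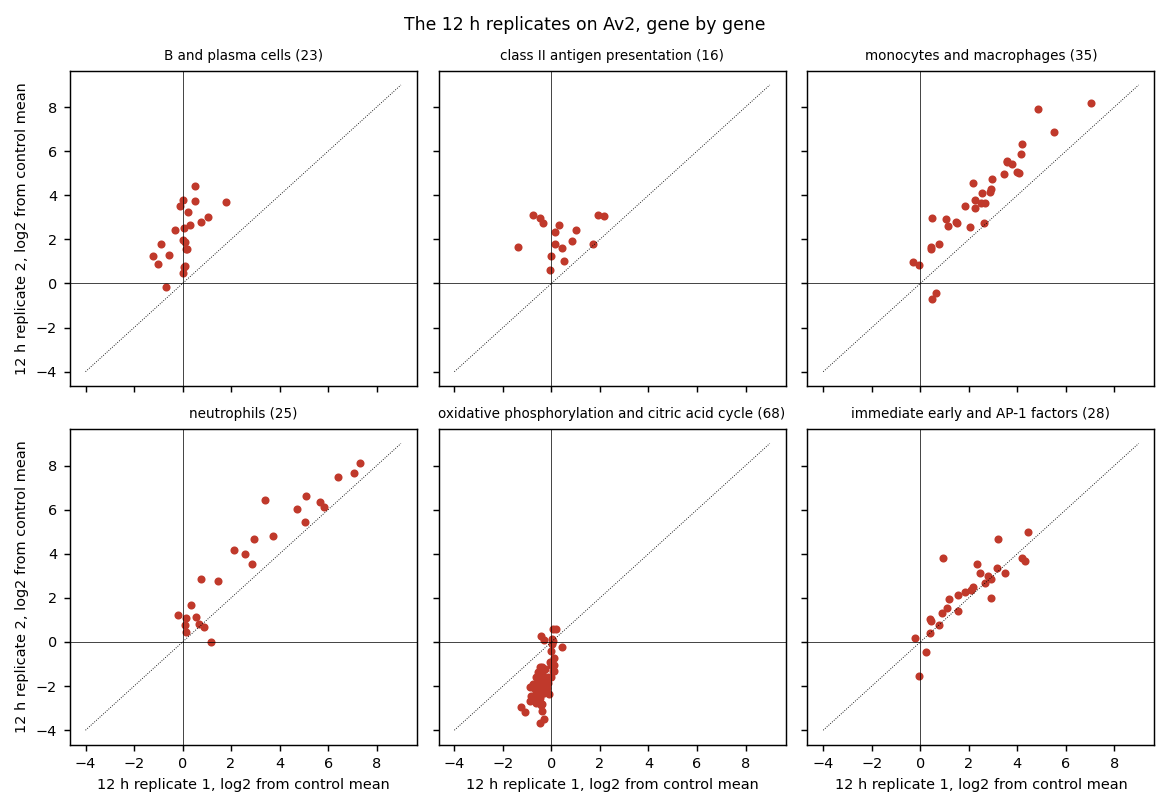
Log2 distance from the control mean of the genes of 6 lists on Av2, with replicate 1 of 12 h on the horizontal axis and replicate 2 on the vertical axis. Genes of B and plasma cells lie near 0 in replicate 1 and above it in replicate 2, with list means of 0.04 and 2.17, whereas immediate early genes average 1.94 and 2.20.

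Some genes of metal and haem handling rose at 12 h. Of 24 genes of metallothionein, haem and iron handling tested on Av2, 10 rose and none fell, with a median log2 change of 0.28, and without replicate 2 the counts were 10 and 1. Mt1, a metallothionein that binds zinc and copper, read 26512 and 35079 at 12 h on Av2, against 1974 and 2169 in controls, a log2 change of 3.88 ± 0.20 (SE, adjusted p = 5.31e-15 by limma). Mt2, its neighbour on the chromosome, read 8283 and 15798, against 2467 and 3372, and lost its call on A without replicate 2 or without either control. Hmox1, which degrades haem, read 20270 and 21291 at 12 h on Av2, where alone it was listed, against 2170 and 1964, a log2 change of 3.33 ± 0.29 (SE, adjusted p = 5.59e-10 by limma). Hp, the haemoglobin scavenger haptoglobin, read 17825 and 22414, against 2415 and 3045. No 12 h array of these 4 genes overlapped the controls.

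Heat shock genes split. Of 31 tested on Av2, 6 rose and 6 fell, beside 10.5% and 12.4% of all probe sets, with a median log2 change of 0.02. Without replicate 2 the counts were 5 and 0, and without control replicate 1 they were 5 and 3. Hspa1a, the stress-induced member of the Hsp70 family, read 2572 and 1975 at 12 h, against 731 in each control, a log2 change of 1.62 ± 0.44 (SE, adjusted p = 0.00747 by limma). Hspa1b is nearly identical to it, so their probe sets may share signal. It read 1276 and 1049, against 531 and 430, and lost its Av2 call without either 12 h replicate or control replicate 2. Hsp90aa1, the inducible Hsp90, read 4550 and 6206, against 1237 and 1134. Dnajb5, a cochaperone, was among the largest falls, at 755 and 58.5 against 1281 and 1785, with a call lost on both versions without replicate 2 and on A without replicate 1.

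The promoters of 5 of these genes are printed because they belong to genes that rose with both replicates above both controls and hold the letters of a motif known from their induction. They were taken from RefSeq on GRCm38.p6, from 250 bases before to 50 bases after the first listed start, 5′ to 3′ along the gene. Of 152 named genes, 116 had such an entry. Capitals mark the matches on either strand. Mt1 (chr8:94178839-94179138, plus strand) and Mt2 (chr8:94172368-94172667, plus strand) were searched for TGCGCNC, a form of the metal response element core. Forms of that core with other letters were not searched for and are not marked. Hspa1a (chr17:34972107-34972406, minus strand) was searched for GAANNTTC, the core of the heat shock element. Socs3 (chr11:117969317-117969616, minus strand) was searched for TTCNNNGAA, the palindrome bound by STAT factors, and Cxcl2 (chr5:90903649-90903948, plus strand) for the NF-kappa B site. The STAT and NF-kappa B motifs and the promoters to print were chosen after values were seen.
Mt1: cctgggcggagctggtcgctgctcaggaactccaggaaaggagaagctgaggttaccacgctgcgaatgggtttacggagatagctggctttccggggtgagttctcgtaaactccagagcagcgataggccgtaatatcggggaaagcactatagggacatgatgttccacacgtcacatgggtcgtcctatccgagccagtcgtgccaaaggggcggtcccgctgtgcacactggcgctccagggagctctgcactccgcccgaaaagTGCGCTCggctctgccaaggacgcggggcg
Mt2: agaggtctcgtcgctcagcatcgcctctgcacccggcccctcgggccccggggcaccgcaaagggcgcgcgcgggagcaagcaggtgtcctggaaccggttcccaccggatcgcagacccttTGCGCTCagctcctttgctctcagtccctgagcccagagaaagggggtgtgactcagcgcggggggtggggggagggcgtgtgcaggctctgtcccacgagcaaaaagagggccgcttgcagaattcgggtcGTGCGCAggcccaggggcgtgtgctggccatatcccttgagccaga
Hspa1a: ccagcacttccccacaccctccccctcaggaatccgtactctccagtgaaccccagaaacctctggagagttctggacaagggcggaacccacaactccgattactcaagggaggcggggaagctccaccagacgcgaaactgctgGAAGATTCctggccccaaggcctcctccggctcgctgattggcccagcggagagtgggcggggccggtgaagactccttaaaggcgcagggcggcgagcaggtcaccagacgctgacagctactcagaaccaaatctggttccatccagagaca
Socs3: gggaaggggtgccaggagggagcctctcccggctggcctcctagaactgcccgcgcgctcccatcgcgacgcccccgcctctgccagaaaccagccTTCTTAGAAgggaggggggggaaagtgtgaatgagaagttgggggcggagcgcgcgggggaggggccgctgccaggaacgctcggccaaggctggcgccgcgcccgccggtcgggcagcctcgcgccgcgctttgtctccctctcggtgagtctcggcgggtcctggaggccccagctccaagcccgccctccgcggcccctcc
Cxcl2: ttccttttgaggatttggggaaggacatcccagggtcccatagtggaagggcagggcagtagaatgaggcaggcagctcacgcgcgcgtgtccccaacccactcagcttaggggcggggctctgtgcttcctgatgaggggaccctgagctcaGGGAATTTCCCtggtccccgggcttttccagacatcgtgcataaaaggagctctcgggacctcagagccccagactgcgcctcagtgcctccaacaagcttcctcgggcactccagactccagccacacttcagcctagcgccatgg

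Among all 27025 promoters of the same length, 15.5% held TGCGCNC, 7.95% held GAANNTTC, 8.47% held TTCNNNGAA and 4.35% held the NF-kappa B site. Positions are counted from the first listed start, and whether transcription begins there was not tested. Mt1 held 1 match to TGCGCNC, 20 bases after its listed start, and Mt2 held 2, at 128 bases before and 4 bases after. Hspa1a held 1, 104 bases before its start, Socs3 held 1, 154 bases before, and Cxcl2 held 2 that overlap, 97 and 96 bases before. A match describes these letters only and names no bound factor.

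Myogenic regulators changed in both directions, where 10.5% of all probe sets were called higher and 12.4% lower on Av2. Of 31 genes of this list tested on Av2, 9 rose and 7 fell, with a median log2 change of 0.12, and without replicate 2 the counts were 8 and 3. Without control replicate 2 they were 8 and 4. Ankrd1, a stretch-responsive ankyrin repeat protein of striated muscle, read 7587 and 10080 at 12 h, against 273 and 214, a log2 change of 5.18 ± 0.34 (SE, adjusted p = 8.74e-13 by limma). Cdkn1a, the cell cycle inhibitor p21, read 3726 and 4420, against 391.6 and 407, a log2 change of 3.35 ± 0.18 (SE, adjusted p = 7.19e-15 by limma). A dimmer probe set of Cdkn1a rose by 1.38 on Av2 and was not called on A. Id2, an inhibitor of myogenic factors, read 2740 and 4049, against 638 and 422. Six4, a homeobox factor of myogenic cells, fell to 114 and 304, against 669 and 964. These 4 kept their calls on both versions without replicate 2.

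Of the 4 myogenic factors, Myod1 was called on Av2 and none on A. Myod1, which marks activated satellite cells, read 5341 and 3941 at 12 h on Av2, against 1839 and 2511, a log2 change of 1.09 ± 0.21 (SE, adjusted p = 0.000198 by limma). On A it read 4407 and 3540, against 1978 and 2765, with an adjusted p of 0.0942 by limma. Both 12 h arrays lay above both controls on both versions. Myog, the factor of differentiation, read 672 and 1043 at 12 h, against 898 and 664 (adjusted p = 0.913 by limma), Myf6 read 8225 and 4074, against 3240 and 3073 (adjusted p = 0.0996 by limma), and Myf5 read 55.5 and 14.4, below the floor, against 84.3 and 176 (adjusted p = 0.0909 by limma).

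Cell division genes were called at a share near or below that of all probe sets. Of 28 genes of DNA replication and mitosis tested on Av2, 2 rose, Ccna2 and Ccnd3, beside 10.5% of all probe sets called higher, with a list median of 0.07 on the log2 scale. Without replicate 2 none rose and 1 fell, and without control replicate 1 or 2 there were 1 and 0. Against the mean of 1 and 2 d, 17 of the 28 were lower at 12 h on Av2 and 8 on both versions. Ribosome biogenesis was higher, with 12 of 24 genes called on Av2, none lower and a median of 0.65, and 8 called without replicate 2. Ncl, the nucleolar protein nucleolin, read 7606 and 11868 at 12 h, against 4203 and 4520, with a call on A lost without either control, and Nop56, a subunit of the box C/D nucleolar particle, read 1123 and 2167, against 599 and 676.

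**Figure D4:**
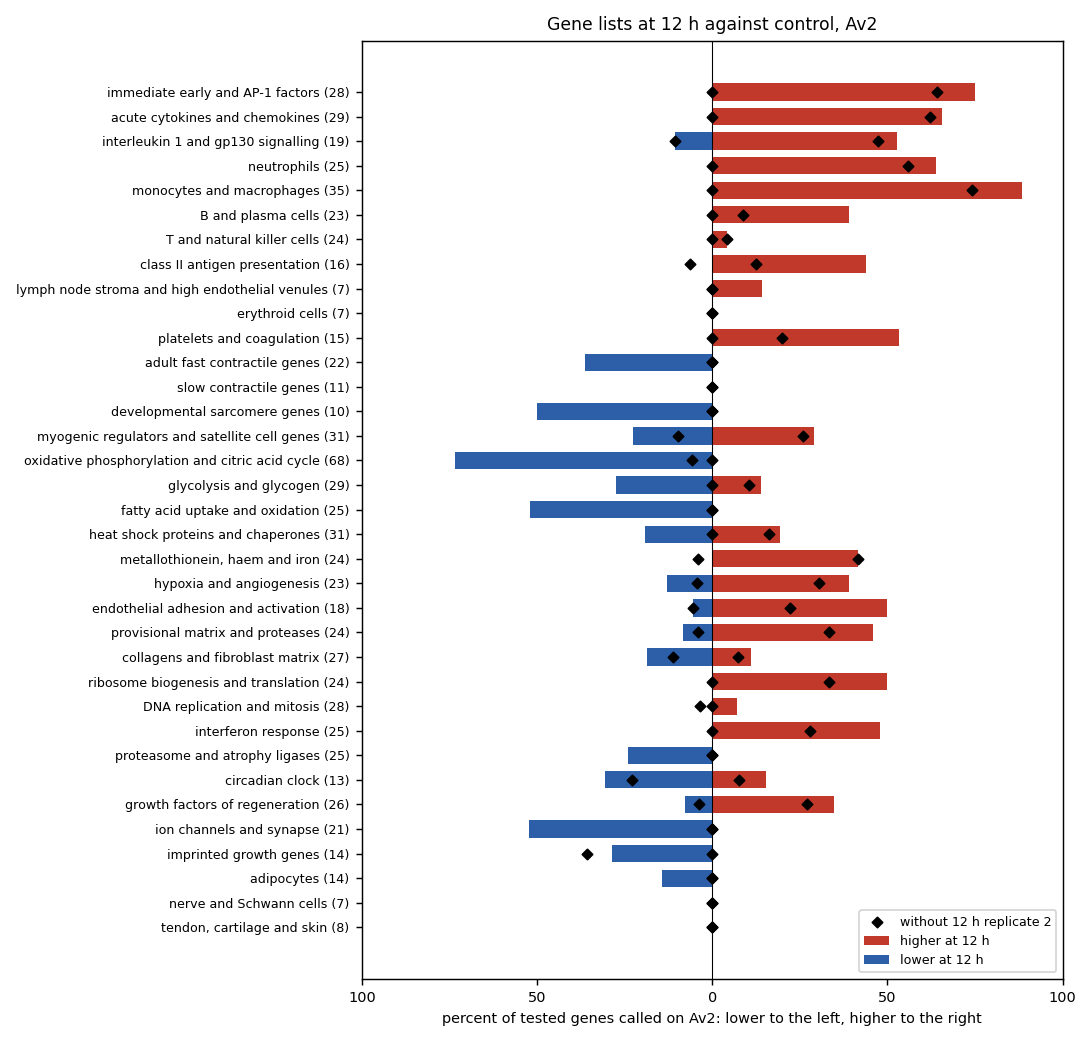
Percent of the tested genes of each list called higher (right) or lower (left) at 12 h on Av2, with diamonds for the same percent without 12 h replicate 2. Over all probe sets tested on Av2, with all arrays, 10.5% were called higher and 12.4% lower. Of 28 immediate early genes 21 were called higher, and 18 without replicate 2, whereas 50 of 68 genes of the respiratory chain and citric acid cycle were called lower, and 4 without replicate 2.

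The 12 largest falls held genes of varied function, and replicate 2 lay below replicate 1 in all 12 of them on Av2. Aqp4, the water channel of the fibre membrane, read 867 and 30.7 at 12 h on Av2, against 2151 and 1798 in controls, a log2 change of −3.05 ± 0.70 (SE, adjusted p = 0.00164 by limma). Tspan8, a tetraspanin, read 529 and 42.3, against 1142 and 1361. Mybph, a myosin-binding protein of the sarcomere, read 1356 and 479, against 6185 and 3830. Usp2, a ubiquitin protease under clock control, read 3609 and 758, against 7684 and 10058. Rragd, a GTPase of the nutrient-sensing pathway, read 585 and 454, against 2123 and 2524, a log2 change of −2.17 ± 0.24 (SE, adjusted p = 3.38e-08 by limma).

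Rragd was thus close to even in both replicates, whereas Aqp4 and Tspan8 fell mostly in replicate 2. Ogn, a small matrix proteoglycan, read 800 and 259 at 12 h, against 2192 and 1880, and Ank1, an ankyrin that has a small form at the sarcoplasmic reticulum, read 2043 and 398, against 4252 and 3776. Fmc1, Mrpl18, Tmem160 and Acyp2 were the remaining members, with log2 changes from −2.58 to −2.18. Brighter probe sets changed less on Av2, by −1.45 for Fmc1, −1.10 for Mrpl18, −1.89 for Usp2, −1.70 for Ank1 and −1.83 for Ogn. Those of Mrpl18 and Usp2 were not called on A. Without replicate 2, 7 of the 12 kept their calls on Av2, and Aqp4, Dnajb5, Tspan8, Fmc1 and Tmem160 did not. On A, 9 kept theirs, and Dnajb5, Fmc1 and Tmem160 did not. Without control replicate 1, 6 of the 12 kept their calls on A, and Aqp4, Fmc1, Mrpl18, Tmem160, Acyp2 and Ank1 did not. Without control replicate 2, 8 did, and Aqp4, Usp2, Acyp2 and Ank1 did not. Quantile normalization ended the call of Fmc1 on A.

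Energy metabolism was lower, and most of the calls were lost without replicate 2. Calls over all probe sets on Av2 were also fewer without it. Of 68 genes of the respiratory chain, ATP synthase and citric acid cycle tested on Av2, 50 fell and none rose, with a median log2 change of −1.16. On both versions 9 fell: Ndufa8, Ndufb8, Ndufs1, Cyc1, Atp5a1, Atp5l, Idh3a, Ogdh and Mdh2. The mean distance from the controls on Av2 was −0.38 in replicate 1 and −1.73 in replicate 2, and on A −0.42 and −1.95. Without replicate 2, 4 fell on Av2 and none on both versions. Without control replicate 1 or 2, 44 and 42 fell on Av2. Ogdh, a subunit of a citric acid cycle enzyme, read 9370 and 4185 at 12 h, against 18410 and 16468. Atp5l, a subunit of ATP synthase, read 10099 and 3932, against 16639 and 16395. The calls of Ogdh and Atp5l on A were lost without replicate 2, without either control and under quantile normalization.

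Fatty acid and sugar metabolism had the same dependence. No gene of their lists or of the proteasome list was called on both versions. Over all probe sets tested on Av2, 10.5% were called higher and 12.4% lower. Of 25 genes of fatty acid uptake and oxidation, 13 fell on Av2, with a median log2 change of −0.95, none without replicate 2 and 7 without either control. Fabp3, the fatty acid carrier of muscle, read 5273 and 981 at 12 h, against 7371 and 7265, and lost its call in each of these cases. Of 29 genes of glycolysis and glycogen, 4 rose and 8 fell on Av2, with a median of −0.41. Without replicate 2 the counts were 3 and 0, and without control replicate 1 or 2 there were 3 and 3 or 3 and 1. Slc2a1, the basal glucose transporter, was higher on Av2, at 1158 and 3261 against 66.4 and 162, and was not called on A (adjusted p = 0.442 by limma). The proteasome list had 6 of 25 lower, with a median of −0.37, none without replicate 2 and 2 without control replicate 1.

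Sarcomere transcripts were lower in part. Of 22 adult fast contractile genes tested on Av2, 8 fell and none rose, with a median log2 change of −0.64, and none was called without replicate 2 and 5 without either control. On both versions 3 fell. Ryr1, the calcium release channel of the sarcoplasmic reticulum, read 20300 and 7452 at 12 h, against 31049 and 39448, a log2 change of −1.51 ± 0.35 (SE, adjusted p = 0.00191 by limma). Cacng1, a subunit of the voltage sensor, read 4753 and 2338, against 8415 and 7728. The calls of both on Av2 were lost without replicate 2, and those on A also without either control, that of Ryr1 also under quantile normalization. None of 11 slow contractile genes was called, at a median of −0.45. Pvalb, the calcium buffer of fast fibres, read 18776 and 24747, against 17800 and 27875, Ckm, the muscle creatine kinase, 12967 and 9881, against 17245 and 19675, and Mb, myoglobin, 17015 and 9802, against 15280 and 24871, none of them called by the brightest probe set. A dimmer probe set of Pvalb fell by 1.60 on the log2 scale on Av2 (adjusted p = 0.0467 by limma) and was not called on A.

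No rise was called among developmental sarcomere genes, and no fall was called on both versions. Of 10 tested on Av2, 5 fell, with a median log2 change of −0.83, none without replicate 2, 2 without control replicate 1 and 1 without control replicate 2. Myh3, the embryonic myosin, read 66.7 and 88.2 at 12 h, against 160 and 166, and lost its call without any 1 of the 4 arrays. Ion channels and synapse genes had 11 of 21 lower on Av2, with a median of −1.08, and 2 lower on both versions. Without replicate 2 none was lower, and without control replicate 1 or 2 there were 5 and 6. Among imprinted growth genes 4 of 14 were lower on Av2, with a median of −0.57, and 5 without replicate 2. Cdkn1c, a cell cycle inhibitor of this list, read 597 and 369, against 1113 and 1350, and Sgce, a sarcoglycan, 664 and 515, against 1417 and 1054.

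Genes of the circadian clock differed between the groups, for which no time of day is given. Of 13 tested on Av2, 2 rose and 4 fell, beside 10.5% and 12.4% of all probe sets, with a median log2 change of −0.10. Dbp, a clock output factor, read 660 and 56.4 at 12 h on Av2, against 2738 and 2495, and Tef, of the same family, read 2475 and 490, against 7016 and 7937. Neither is listed on A. Nr1d2, a repressor of the clock, fell on both versions, with 1381 and 704 on Av2 against 2841 and 3313, and its call on A was lost without either control. Nfil3, an antagonist of Dbp, rose on both versions, with 1438 and 1685 against 585 and 776. This probe set lost its calls without replicate 2 or control replicate 1. A dimmer probe set of Nfil3 was called on both versions and rose more, by log2 changes of 2.13 on Av2 and 2.01 on A. How far the sampling hour contributed was not tested.

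Vessel and matrix genes were higher in selected members. Of 18 endothelial genes tested on Av2, 9 rose and 1 fell, beside 10.5% and 12.4% of all probe sets, with a median log2 change of 0.79. Without replicate 2 and without control replicate 2 the counts were 4 and 1. Selp, which lets leukocytes roll on vessels, read 3279 and 2218 at 12 h, against 95.2 and 49.6, a log2 change of 5.10 ± 0.45 (SE, adjusted p = 5.51e-10 by limma). Cldn5, a tight junction protein of endothelium, read 3504 and 1664, against 383 and 270, with a call on A lost without either control. Of 24 genes of the provisional matrix and its proteases, 11 rose and 2 fell, with a median of 0.74, and 8 and 1 without replicate 2. Timp1, an inhibitor of metalloproteases, read 5900 and 13411, against 1023 and 1377, and Ptx3, a soluble pattern receptor, read 4401 and 4250, against 572 and 566.

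Established matrix genes were called at shares near those of all probe sets. Of 27 collagens and fibroblast matrix genes, 3 rose and 5 fell on Av2, beside 10.5% and 12.4% of all probe sets, with a median log2 change of −0.20. Without replicate 2 the counts were 2 and 3, and without control replicate 1 they were 3 and 2. Fmod, a collagen-binding proteoglycan, read 7092 and 6453 at 12 h, against 16197 and 13424, and Col4a1, of basement membranes, rose to 10395 and 12640, against 6332 and 3495. On A, Fmod lost its call without control replicate 1, and Col4a1 without replicate 2 or control replicate 2. Of 15 platelet and coagulation genes, 8 rose and none fell, with a median of 0.99, and 3 were called without replicate 2 and 5 without control replicate 1. Plaur, the urokinase receptor, read 2131 and 3679, against 37.3 and 35.9 below the floor, at least 43.3-fold, and was the member called on both versions.

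Growth factors, hypoxia genes and interferon-induced genes were each higher in part. The shares over all probe sets on Av2 were 10.5% higher and 12.4% lower. Of 26 growth factors tested on Av2, 9 rose and 2 fell, with a median log2 change of 0.09, and 7 and 1 without replicate 2. Fst, follistatin, which binds myostatin and activins, read 1882 and 2057 at 12 h, against 234 and 283. Of 23 hypoxia and angiogenesis genes, 9 rose and 3 fell, with a median of 0.31, and 7 and 1 without replicate 2. Hif1a, the oxygen-sensitive factor, read 9925 and 20744, against 2051 and 2485. Of 25 interferon-induced genes, 12 rose and none fell, with a median of 0.88, and 7 were called without replicate 2. Gbp2, a guanylate-binding protein, read 1874 and 2131, against 371 and 372.

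Adipocyte genes were called at a share near that of all probe sets. Of 14 tested, 2 fell on Av2, Lpl and Pck1, beside 12.4% of all probe sets called lower, and none without replicate 2 or without either control. None of 7 nerve genes and none of 8 tendon and skin genes was called on Av2.

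The 12 h arrays were also compared with the 1 d and 2 d arrays of each version, which carry other sample codes on A than on Av2. Tested directly against the mean of 1 and 2 d, 8.19% of probe sets on Av2 and 7.11% on A were higher at 12 h, and 11.6% and 11.3% were lower. On both versions 234 were higher (4.93% of 4742) and 436 were lower (9.19%).

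This comparison shares its 12 h arrays with the comparison against control. Among the 355 rises, 52 were higher at 12 h than at 1 and 2 d on both versions and 46 were lower. The other 257 were not called in the same direction on both. Against the same controls, 305 of the 355 were also called higher at 1 and 2 d on both versions. Of the 352 falls, 40 were higher at 12 h than at 1 and 2 d on both versions and 10 were lower. Against the same controls, 315 of the 352 were also called lower at 1 and 2 d on both versions. The rises that were higher at 12 h included Il6, Ngp, Aldh1a3, Ccl11 and Akap12. Il6 read 2545 and 1868 on Av2 at 12 h, 448 and 335 at 1 d and 479 and 343 at 2 d. Its log2 difference between 12 h and the later days was 2.46. Ccl11, the eosinophil chemokine eotaxin, read 767 and 641 in controls, 2266 and 1069 at 12 h, 255 and 329 at 1 d and 226 and 266 at 2 d. Against the same controls it was called higher at 12 h and lower on the later days on both versions. Its call at 12 h on Av2 was lost without replicate 1, without control replicate 1, without control replicate 2 and under quantile normalization, and its call on A was kept in each case.

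Genes of phagocytic macrophages were among the rises that were lower at 12 h than later. The 6 with the largest difference were Lyz2, Mrc1, Cd68, Ms4a6c, Mpeg1 and Lgmn, with log2 differences from −2.07 to −1.75 on Av2. Cd68, a lysosomal protein of macrophages, read 1501 and 4181 at 12 h, against 877 and 538 in controls. Of the 35 monocyte and macrophage genes, 17 were lower at 12 h than at 1 and 2 d on Av2 and 12 on both versions. Of the 22 fast contractile genes, 13 were higher at 12 h than on the later days on Av2 and 7 on both versions, as were 10 of the 11 slow contractile genes on Av2. At 12 h against control, Lyz2 and Mrc1 lost their calls on both versions without replicate 2 or control replicate 2. On A, Ms4a6c and Lgmn lost theirs without replicate 2, and all 6 without control replicate 2. Without control replicate 1, Mrc1 lost its call on both versions and Cd68, Ms4a6c and Mpeg1 lost theirs on A.

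The largest differences between the 12 h replicates that went the same way on both versions are given as a description. Lower in replicate 2 on Av2 were Actc1, cardiac actin, at 20546 and 1637, Atp5o at 11879 and 1801, Atp5e at 9452 and 1034, Cox7a1 at 2640 and 288, Ndufb9 at 6369 and 1158, Fabp3 and Sar1b. Higher in replicate 2 were Arg1, Csf3r at 630 and 6662, and Mxd1 at 717 and 4396. Controls lay at 32122 and 22947 for Actc1, at 15262 and 15954 for Atp5o, and below the floor for Csf3r and Mxd1. Mitochondrial subunits made up 4 of the 10. For Csf3r, the receptor for granulocyte growth factor, the brightest probe set changed by 0.84 and was not called. The brightest probe set of Actc1 changed by −0.88 on Av2 and was not called on either version.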

How the data were processed

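RNA of mouse gastrocnemius was hybridised to 2 versions of an Affymetrix murine array, and the values used were intensity values processed and deposited by the authors. Their software and scaling are not stated in the labels. Their trimmed means were nearly equal between arrays of a version, so no further scaling was applied, and the 66 control probe sets were left out. Values under a floor were set to it before log2 was taken. The floor on Av2, 64.7, was the 20th percentile of the median array, and that on A, 646.8, was 2 times the root mean square of negative values. Probe sets above the floor on at least 2 arrays were tested with limma 3.58.1 in R 4.3.3, with 1 mean per time point over all 54 Av2 or 12 A arrays, moderated variances and Benjamini-Hochberg adjustment at 0.05. Versions were joined by probe set ID. Symbols came from the platform annotation, which gave 1 symbol for 10833 of 12422 Av2 probe sets, several for 396 and none for 1193, and in lists the brightest probe set stood for a gene.

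A fold change against a group wholly below the floor is a lower bound, computed against the floor on each array. On A, 145 of the 355 rises had both controls below the floor. Where a probe set of A was missing or listed at 0 on all arrays, no value is given for it.

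Named genes were the 12 largest rises and falls called on both versions with groups that do not overlap, up to 4 per list, 20 fixed genes, the 10 largest replicate differences and the 6 largest differences each way between 12 h and the mean of 1 and 2 d. The comparison, the 35 lists and the rule were chosen with earlier results of these data known. The fit was tested on simulated data of the same size, in which each probe set had the same spread in every group. On Av2 it called 34% of probe sets changed 2-fold and 82% of those changed 4-fold, and on A 60% and 88%. The measured 12 h replicates differed more than the controls, so these shares need not hold for this comparison. The number of arrays limits the precision.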

Additional observations from a re-analysis of the deposited data

Results flagged for a closer look

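Ccl11, the eosinophil chemokine eotaxin, moved one way at 12 h and the other way on the next days, relative to the controls. Its log2 change on Av2 was 1.15 at 12 h and −1.39 at 1 and 2 d. The difference between 12 h and the later days was 2.55 on Av2 and was called on both versions by limma. What lies behind it was not tested.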

How the results depend on the processing

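Directions of the named genes called at 12 h were kept in all alternatives run except for Cxcl13 on Av2, whose log2 change ranged from −0.064, without 12 h replicate 2, to 5.06, without 12 h replicate 1, and the cause was not tested. Of 283 tested values of named genes, 273 kept direction and side of the threshold under quantile normalization, 256 without 12 h replicate 1, 201 without 12 h replicate 2, 224 without control replicate 1, 223 without control replicate 2, 245 with the replicate block and 51 with the 12 h and control arrays alone. With the floor doubled it was 240 of 266.

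The main counts were 2742 calls on Av2, 979 on A and 707 on both versions, with 355 higher and 352 lower. Quantile normalization, median scaling, the halved floor, the stricter filter, the variance trend and matching by symbol kept every one of these counts they were run on within 1.5 times. With the floor doubled, 236 were higher on both versions. With no filter on dim probe sets, which adds tests, 524 were called on A and 387 on both versions, 218 higher and 169 lower. With limma required to exceed a 2-fold change, 362 were called on Av2, 93 on A and 86 on both, 83 higher and 3 lower. With the 12 h and control arrays alone, 0 were called on Av2, 32 on A and 0 on both, 0 in either direction, with 1783 and 863 at an unadjusted p under 0.05 by limma.

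With the replicate number as a block, 2772 were called on Av2, 423 on A and 318 on both, 198 higher and 120 lower. The replicate numbers were not taken to pair the samples, since deviations of same-numbered arrays correlated at −0.03 on Av2 and −0.09 on A, across probe sets.

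With 1 array left out, counts ranged from 1226 to 3573 on Av2, from 533 to 2115 on A and from 292 to 1576 on both versions, with 189 to 718 higher and 94 to 858 lower. The lowest count on Av2 came without 12 h replicate 2 and the highest on each version without 12 h replicate 1. Those on A were 598 without control replicate 1 and 533 without control replicate 2. For 12 h against 1 and 2 d, where 2378 were called on Av2, 874 on A and 670 on both, the ranges were 1260 to 3009, 691 to 1734 and 325 to 1322, lowest without replicate 1 and highest without replicate 2.

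Of the calls on both versions 50.2% were higher, against 58.7% with median scaling, 59.1% with the floor halved, 62.3% with the replicate block, 96.5% with the required 2-fold change, 42.3% with the floor doubled and 46.3% with the stricter filter. With 1 array left out it was 45.6% without 12 h replicate 1, 71.0% without 12 h replicate 2, 57.8% without control replicate 1 and 64.7% without control replicate 2. On A 43.8% were higher, against 53.6% with median scaling and 37.5% with the floor doubled. Signal limits A, where 26.4% and 28.2% of probe sets lay above the floor at 12 h, against 27.2% and 26.8% in controls.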
